A study of Homo sapiens with 6 samples.

Results

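SCML1, SCML2 and 7 genes of the Polycomb system (BMI1, PCGF5, CBX6, CBX2, CBX8, EZH2 and RING1) were followed in glioblastoma cells that had received a miR-338-5p mimic. The members were chosen by gene symbol, with the differences between mimic and control and the levels per cell line on these same arrays already known, so the members' values are given as a description. Where a fit over all genes called members, their count stands beside the share of all genes called and is no evidence of its own. A gene was represented by its brightest probe set over the arrays, and BMI1 by the probe set that also carries the readthrough transcript COMMD3-BMI1. Values were obtained for 8 of the 9 genes, out of 18418 genes with a probe set. CBX8 was not named by the probe annotation used and is not analysed here. The arrays hold RNA from 3 established human glioblastoma lines, A172, T98G and U87MG. Each was transfected with the mimic (labelled miR338-5p) or with a negative control and harvested 24 hours later. That gave 3 arrays with the mimic and 3 with the control, 1 array per line and group. All cells were transfected tumour lines grown in serum, and no untransfected array was used here. The labels do not say whether an array came from 1 culture or from several, so any spread given is the spread between lines.

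Polycomb proteins keep developmental genes silent through 2 kinds of complex. Polycomb repressive complex 2, whose catalytic subunit is EZH2, places a repressive methyl mark on histone H3. Polycomb repressive complex 1 is built on RING1 or its paralogue RNF2, which ubiquitinate histone H2A, together with a PCGF subunit such as BMI1 or PCGF5. Its canonical forms also hold a CBX subunit that reads the methyl mark. SCML1 and SCML2 are human relatives of the Drosophila Polycomb protein Sex comb on midleg. BMI1 and EZH2 are known in glioblastoma as factors of stem-like growth. A microRNA is loaded into a silencing complex and pairs with messenger RNAs through its seed, bases 2 to 8, most often in the 3' UTR.

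The agent of the experiment is shown first, because its seed decides which messenger RNAs it can pair with. The sequences are from RefSeq (GRCh38.p14), where MIR338 lies on the minus strand of chromosome 17. In the mature forms the capitals mark the seed, and in the hairpin they mark the miR-338-5p arm.
hsa-miR-338-5p: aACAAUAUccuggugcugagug
hsa-miR-338-3p: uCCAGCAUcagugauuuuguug
MIR338 hairpin: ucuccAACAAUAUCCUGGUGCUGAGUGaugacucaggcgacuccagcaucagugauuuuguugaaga
The arms of the hairpin have different seeds, ACAAUAU and CCAGCAU. A perfect match to the miR-338-5p seed in a messenger RNA reads AUAUUGU. Among 2370 mature microRNA names in the table, 0 others had the same bases 2 to 8 as miR-338-5p. Transcript sequences were not used here, so matches in the members' messenger RNAs were not searched.

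Expression is given as RMA log2 values, in which a difference of 1 is a doubling. Array medians lay between 5.06 and 5.14, and genes in the lowest 25% by mean, below 4.28, were left out, which kept 13813 genes and all 8 measured members. Of 11 glial and glioma markers 8 stood above that level by their mean, among them VIM (11.9 to 12.6), CD44 (11.5 to 11.9) and SOX9 (6.54 to 7.36). SOX2 (4.03 to 4.66), OLIG2 (4.06 to 4.96) and SLC1A3 (3.85 to 8.02) were also among them but had arrays below the level. S100B, FABP7 and AQP4 were below it, and GFAP, the astrocyte filament, lay between 5.07 and 5.39. Of 10 markers of other cell types 5 stood above the level by their mean (CD68, SYT1, KRT19, RBFOX3 and EPCAM). Among these 5, SYT1 (4.06 to 6.67) and EPCAM (3.61 to 4.98) had arrays below the level. PTPRC, PECAM1, VWF, MBP and MOG were below it by their mean. RNA came from whole cultures, so fewer cells that express a gene and less RNA per cell cannot be told apart.

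SCML1 was lower with the mimic in every line. Its level with the mimic was 6.78 in A172, 6.88 in T98G and 6.39 in U87MG, against 8.20, 8.54 and 7.98 in the controls of the same lines. The highest mimic array stood below the lowest control array, so the groups did not overlap. The share of all genes without such overlap was not counted, so it cannot be set beside this or the similar cases below. The difference was -1.41 in A172, -1.66 in T98G and -1.59 in U87MG, with a mean of -1.55 ± 0.13 (SD over lines, n = 3), or 2.93-fold lower. By the size of its negative difference SCML1 was in place 4 among the 13813 genes.

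SCML2, whose protein binds chromatin through MBT repeats, was lower as well, from a level that differed much more between the lines. It measured 5.28 with the mimic in A172, 3.55 in T98G and 5.15 in U87MG, against 6.48, 4.56 and 6.28 with the control. Within each line the mimic array was the lower one, although the groups overlapped across lines because the T98G control was already below the mimic arrays of A172 and U87MG. The differences were -1.20, -1.01 and -1.13 in the same order, with a mean of -1.11 ± 0.10 (SD, n = 3), or 2.16-fold lower. The T98G mimic value lay below 4.28, the level under which genes were left out, so the size of the difference in T98G is uncertain. SCML1 and SCML2 are near neighbours on the X chromosome, with 2 protein-coding genes, RAI2 and BEND2, between them.

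**Figure D1:**
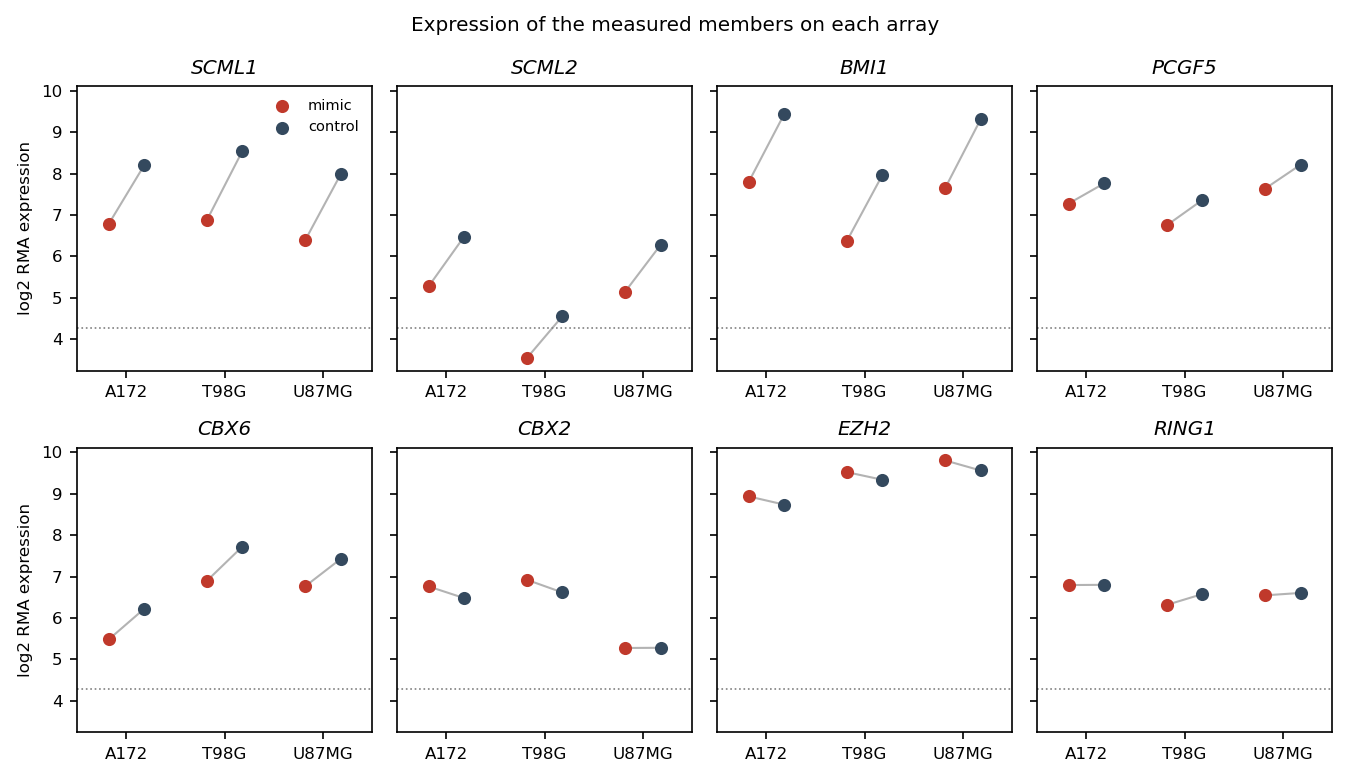
Log2 RMA expression of the 8 measured members (vertical axis) on each array, by cell line, with the mimic on the left of each pair in red and the control on the right in dark blue. The grey line joins the arrays of a line, and the dotted line is the filter level of 4.28; SCML2 in T98G with the mimic, at 3.55, is the only point below it.

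BMI1, a PCGF subunit of canonical Polycomb repressive complex 1, had the most negative difference of the members. It measured 7.80 with the mimic in A172, 6.38 in T98G and 7.65 in U87MG, against 9.43, 7.96 and 9.30 with the control. All mimic arrays were below all control arrays, the closest being A172 with the mimic and T98G with the control. The differences, -1.63, -1.58 and -1.65, were nearly alike in the lines, and their mean was -1.62 ± 0.04 (SD, n = 3), or 3.08-fold lower. Only 1 of the 13813 genes had a more negative mean difference.

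The BMI1 probe set also counts the COMMD3-BMI1 readthrough, which joins BMI1 to the gene next to it, COMMD3, with 0 protein-coding genes between them. A second probe set is annotated to the readthrough and to COMMD3 but not to BMI1 itself, and its values were looked at after those of BMI1 were seen. It measured 8.08 with the mimic in A172, 6.30 in T98G and 7.57 in U87MG, against 7.90, 6.45 and 7.51 with the control. The difference was 0.18, -0.15 and 0.06, with a mean of 0.03 ± 0.17 (SD, n = 3), so it was smaller than its spread over lines. The lower values at this locus were thus measured with the probe set that carries BMI1 and not with the probe set that carries COMMD3. How much of either signal comes from the readthrough was not tested.

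**Figure D2:**
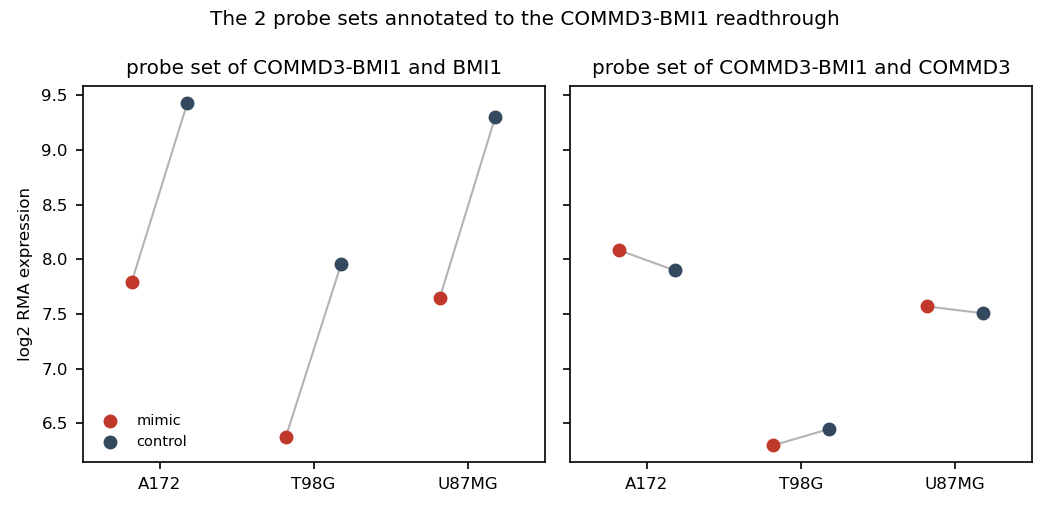
Log2 RMA expression of both probe sets annotated to the COMMD3-BMI1 readthrough, by cell line, mimic on the left in red and control on the right in dark blue. The probe set of BMI1 differs by -1.65 to -1.58, mimic minus control, and is lower with the mimic in every line, while that of COMMD3 differs by -0.15 to 0.18.

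PCGF5, which takes the place of BMI1 in a variant form of Polycomb repressive complex 1, was lower by a smaller step. Its level with the mimic was 7.28 in A172, 6.75 in T98G and 7.64 in U87MG, against 7.76, 7.36 and 8.21 with the control. Each line's mimic array was below its control, and the groups overlapped across lines. The differences were -0.48, -0.61 and -0.58, with a mean of -0.56 ± 0.06 (SD, n = 3), or 1.47-fold lower.

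CBX6, one of the CBX subunits of canonical complexes, measured 5.48 with the mimic in A172, 6.90 in T98G and 6.76 in U87MG, against 6.22, 7.72 and 7.42 with the control. It was lower in every line, while A172 stood so far below the other lines that its control array was under both of their mimic arrays. The differences were -0.74, -0.82 and -0.66, with a mean of -0.74 ± 0.08 (SD, n = 3), or 1.67-fold lower.

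CBX2, another CBX subunit, showed no such step. It measured 6.76 with the mimic in A172, 6.92 in T98G and 5.28 in U87MG, against 6.48, 6.62 and 5.28 with the control. The difference was 0.28 in A172 and 0.30 in T98G, and -0.004 in U87MG. Its mean of 0.19 ± 0.17 (SD, n = 3) was little larger than the spread over lines.

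EZH2 measured 8.93 with the mimic in A172, 9.52 in T98G and 9.80 in U87MG, against 8.73, 9.33 and 9.56 with the control. The mimic array was slightly above the control in every line, by 0.20, 0.18 and 0.24, with a mean of 0.21 ± 0.03 (SD, n = 3). That step was small beside the difference of 0.59 between T98G and A172, and the groups overlapped.

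RING1, the ubiquitin ligase subunit, measured 6.79 with the mimic in A172, 6.32 in T98G and 6.55 in U87MG, against 6.80, 6.58 and 6.60 with the control. Its differences of -0.01, -0.26 and -0.06 averaged -0.11 ± 0.13 (SD, n = 3), which is within the spread over lines. A dimmer second probe set of RING1 gave -0.11 ± 0.16 (SD, n = 3), so the 2 probe sets did not disagree. RING1 was the only member with more than 1 probe set.

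**Figure D3:**
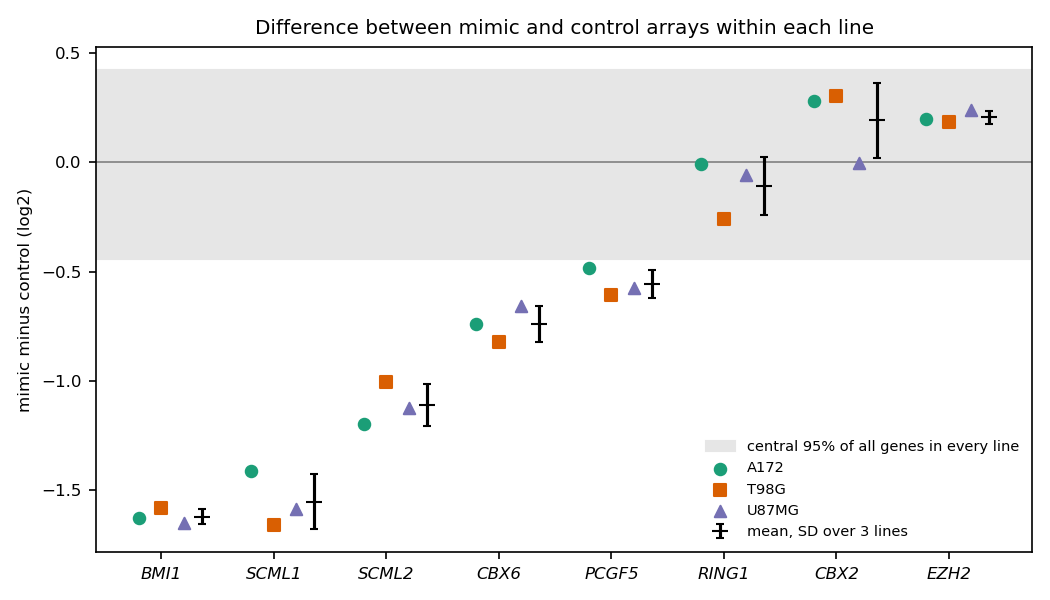
Mimic minus control on the log2 scale (vertical axis) for each measured member, with 1 point per cell line and, to the right of each group of points, the mean with its SD over 3 lines. The grey band holds the differences that lie within the central 95% of all 13813 genes in each line; BMI1, SCML1, SCML2, CBX6 and PCGF5 lie below it in all 3 lines, and RING1, CBX2 and EZH2 lie within it.

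In limma's fit over all genes, with the cell line as a block, 5 of the 8 measured members were called lower (SCML1, SCML2, BMI1, PCGF5 and CBX6; adjusted p under 0.05) and 0 were called higher, with 1 member higher at an unadjusted p under 0.05. The same fit called 0.796% of all genes lower and 0.319% higher. At an unadjusted p under 0.05 it had 1637 of the 13813 genes, both directions together. A difference of -0.5 or lower in each of the 3 lines was found for 4 members (SCML1, SCML2, BMI1 and CBX6) and for 0.507% of all genes, and one of 0.5 or higher in each line for 0 members and 0.181% of all genes. The members were picked with this contrast known, so these counts describe the choice. The number of members called was 4 without the A172 arrays and 4 without those of T98G, PCGF5 being lost in both cases, and 0 without those of U87MG. With no filter 4 were called and PCGF5 was lost (adjusted p = 0.0627 with limma), and with the lowest 50% of genes left out 4 were called, since SCML2 was then among the genes not tested. The fit without U87MG called 0 of all genes, while 1341 had an unadjusted p under 0.05. Without U87MG the mean differences were -1.54 for SCML1, -1.10 for SCML2 and -1.61 for BMI1. They were close to those of all lines, but the arithmetic fixes this when 1 of 3 lines is left out. It therefore says nothing about stability.

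The lines carried different amounts of the members' RNA, and the order of the lines differed from gene to gene. BMI1 and SCML2 shared an order. For BMI1 the mean over the 2 arrays of a line was 8.61 in A172, 8.48 in U87MG and 7.17 in T98G, and for SCML2 it was 5.88, 5.72 and 4.06. T98G stood apart as low for both genes, and the step between U87MG and T98G was 1.27 for BMI1 among mimic arrays and 1.34 among control arrays, and 1.60 and 1.72 for SCML2. The step between A172 and U87MG was only 0.15 and 0.12 for BMI1 and 0.13 and 0.20 for SCML2. PCGF5 was also lowest in T98G, with 7.92 in U87MG, 7.52 in A172 and 7.06 in T98G.

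SCML1 had another order and the narrowest range but for RING1, with 7.71 in T98G, 7.49 in A172 and 7.18 in U87MG. The step between T98G and A172 was 0.10 among mimic arrays and 0.35 among control arrays, so it was barely larger than the spread between these values (mean 0.22, SD 0.18). T98G, lowest for SCML2, was thus highest for SCML1.

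Both CBX genes had 1 line far below the others, and not the same line. CBX6 had 7.31 in T98G, 7.09 in U87MG and 5.85 in A172, while CBX2 had 6.77 in T98G, 6.62 in A172 and 5.28 in U87MG. The step down to A172 for CBX6 was 1.28 among mimic arrays and 1.20 among control arrays, and the step down to U87MG for CBX2 was 1.48 and 1.20. EZH2 had 9.68 in U87MG, 9.42 in T98G and 8.83 in A172. RING1 had 6.80 in A172, 6.58 in U87MG and 6.45 in T98G, where U87MG and T98G did not differ beyond their spread (mean step 0.13, SD 0.14). All other neighbours in these orders differed by more than the SD of the mimic and control steps. The F test between lines called 8 of 8 members and 67.5% of all genes, and the levels per line were known when the members were picked.

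**Figure D4:**
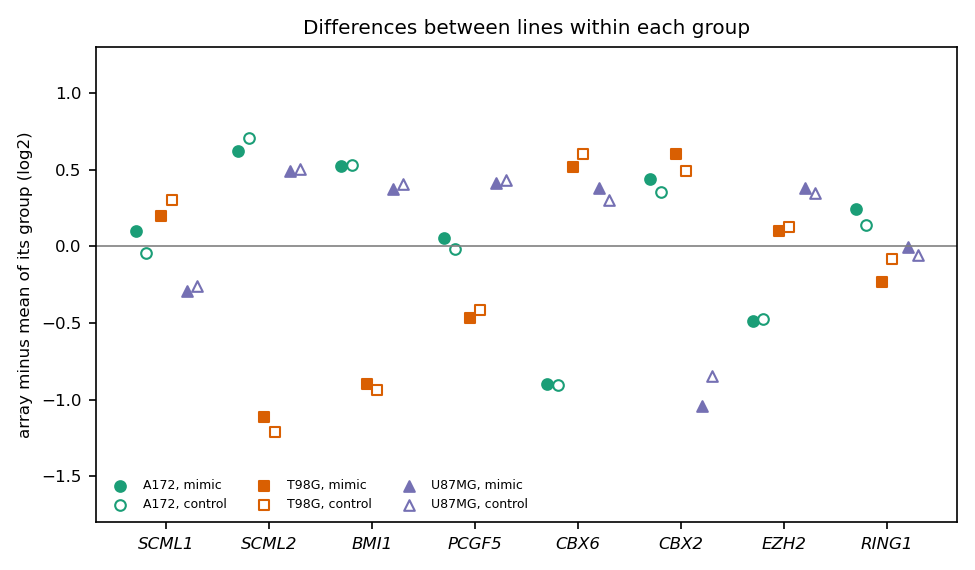
Each array's log2 value minus the mean of its group (vertical axis) for the 8 measured members, with colours and shapes for the lines, filled for mimic arrays and open for control arrays. Filled and open points of a line lie close together, T98G is lowest for SCML2, BMI1 and PCGF5, A172 for CBX6 and EZH2, and U87MG for CBX2 and SCML1.

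The rest of the system was read from lists of 118 genes grouped by function, of which 94 could be tested. Only 1 of them passed limma's adjusted threshold for mimic against control, and it was lower. Called higher were 0, and at an unadjusted p under 0.05 there were 5 lower and 8 higher. Of all 13813 genes 0.796% were called lower and 0.319% higher, and 1637 had an unadjusted p under 0.05 in that fit. All 94 had a median difference of 0.05, beside 0.01 for all genes. The gene that fell was SKP1, an adaptor of SCF ubiquitin ligases that is also found in the variant Polycomb complex of KDM2B and BCOR. It measured 9.69 with the mimic in A172, 9.33 in T98G and 8.93 in U87MG, against 10.3, 10.2 and 9.86 with the control, and the groups did not overlap. Its mean difference was -0.83 ± 0.16 (SD, n = 3; adjusted p = 0.0148 with limma), or 1.78-fold lower. The adjusted p was 0.0188 without A172, 0.031 without T98G and 0.142 without U87MG. Under the other alternatives it lay between 4.72e-05, with the variance prior fitted to the expression level, and 1, without the cell line as a block. A dimmer second probe set of SKP1 gave -0.22 in A172, -0.90 in T98G and -0.68 in U87MG, the same direction with a much smaller step in A172.

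Among the other subunits of Polycomb repressive complex 1 (RNF2 was not analysed here), 0 of 8 genes passed and the median difference was 0.04. PHC3, a Polyhomeotic subunit, had the most negative value, -0.35 ± 0.09 (SD, n = 3; adjusted p = 0.127 with limma, under 0.05 in 3 alternatives), with 9.18, 9.10 and 8.94 under the mimic against 9.48, 9.39 and 9.40 in the controls. The other PCGF genes lay between -0.19 for PCGF1 and 0.15 for PCGF6, so none came near the difference of BMI1. BMI1 was picked with its difference known, so this comparison describes the choice and was not tested. Of the 19 tested partners of variant complexes SKP1 alone passed. RYBP had -0.17, its paralogue YAF2 -0.15, BCOR -0.09, KDM2B 0.09 and AUTS2, a partner of PCGF5, 0.09 (list median 0.01).

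Of 8 tested genes that share SAM or MBT domains with SCML1 and SCML2, 0 passed and 0 had an unadjusted p under 0.05. SCMH1 had -0.15, L3MBTL3 0.09, SFMBT1 0.17 and SFMBT2 0.18 (list median 0.06). SCML4, L3MBTL4, SAMD13 and SAMD7 lay below the filter. The tested relatives lay between -0.15 and 0.18, beside -1.55 for SCML1 and -1.11 for SCML2. SCML1 and SCML2 were picked with their differences known, so this contrast describes the choice and was not tested.

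Of 13 subunits of Polycomb repressive complex 2 other than EZH2, 0 passed, with 2 lower and 2 higher at an unadjusted p under 0.05 (list median 0.05). JARID2, an accessory subunit that helps to recruit the complex, had the most positive value of all listed genes, 0.38 ± 0.13 (SD, n = 3; adjusted p = 0.125 with limma). JARID2 passed only with the lowest 50% of genes left out and with the variance prior fitted to the expression level. These settings called 125 and 170 of all genes higher, against 44 in the main fit. The core subunits had 0.22 for SUZ12, 0.02 for EED, 0.08 for RBBP4 and 0.06 for RBBP7, and EZH1, the paralogue of EZH2, had 0.17. LCOR at -0.32 and AEBP2 at -0.27 were on the negative side, with adjusted p of 0.159 and 0.238 in the limma fit.

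Of 12 genes of the deubiquitinase complexes that remove the H2A mark 0 passed (list median 0.03), from HCFC1 at -0.13 to KDM1B at 0.22. Of 7 histone demethylases and other antagonists 0 passed (list median 0.07), with KDM6A at -0.004, KDM6B at 0.14 and KMT2A at 0.24. YY1, a DNA-binding protein linked to Polycomb recruitment, had 0.11. Of 26 tested loci known to be silenced by Polycomb, the HOX genes and CDKN2A and CDKN2B, 0 passed, with 0 lower and 2 higher at an unadjusted p under 0.05. Of all 13813 genes 1637 had an unadjusted p under 0.05, both directions together. The median of these loci was 0.09, beside 0.01 for all genes. Of the 26 loci 9 were negative, and the share of negative values among all genes was not counted. Whether the loci differ as a set was not tested. HOXB6 had 0.29, HOXB9 0.27, HOXC11 0.27 and HOXB2 0.25, while HOXB7 had -0.29 with a spread of 0.65 over the lines. CDKN2A, the locus best known as a target of BMI1, lay close to the filter level of 4.28, with 4.40, 4.60 and 4.43 under the mimic against 4.93, 4.33 and 4.20 in the controls. Its mean difference of -0.01 ± 0.45 (SD, n = 3) is therefore limited by signal and says little about this gene. HOXC11, HOXB9, HOXB5, HOXC10, SFMBT2 and AUTS2 also had at least 1 array below that level. Whether CDKN2A and CDKN2B are present in the DNA of these lines was not tested.

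**Figure D5:**
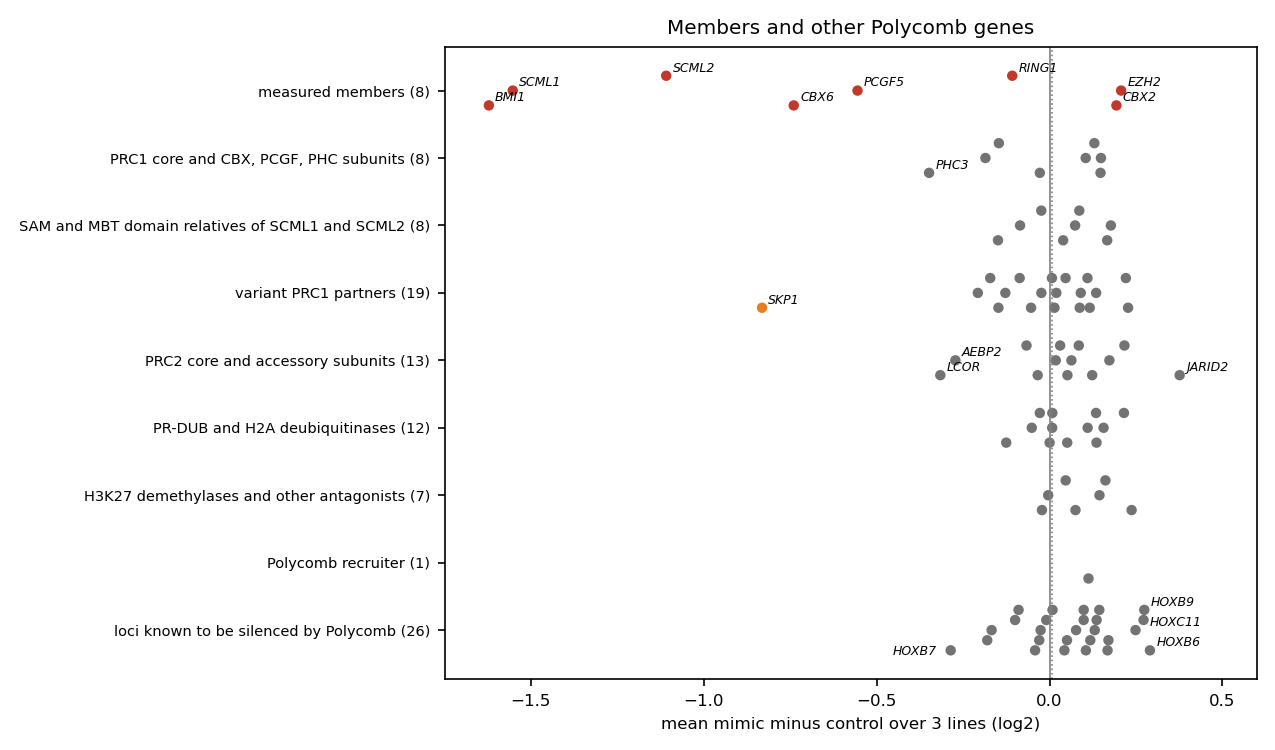
Mean mimic minus control over 3 lines on the log2 scale (horizontal axis) for the measured members in red and for the other Polycomb genes by list, with the number of tested genes in brackets; vertical offsets within a row only separate the points, and the dotted line is the median of all genes, 0.01. SKP1, in orange, is the only listed gene past the adjusted threshold, and the grey points lie between -0.35 and 0.38.

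Between the lines the F test called 68 of the 94 listed genes, or 72.3%, beside the 67.5% of all genes given above. Of the 8 with the smallest p, 6 were HOX genes and the others were MTF2, an accessory subunit of Polycomb repressive complex 2, and KDM6A, a demethylase of histone H3. MTF2 averaged 7.49 in A172, 8.88 in T98G and 6.87 in U87MG (adjusted p = 1.2e-05 with limma), and KDM6A had 7.10, 5.92 and 7.41 (adjusted p = 3.38e-05 with limma). Thus T98G, the line with the lowest BMI1 and SCML2, had the highest MTF2 and the lowest KDM6A of the lines. HOXB6 was high in A172 at 8.63, against 5.01 in T98G and 5.22 in U87MG, and HOXD10 had 8.94, 6.73 and 5.62 in the same order. HOXB5 at 6.93 and HOXB3 at 6.68 were also highest in A172, HOXC10 was highest in T98G at 6.61, and HOXB2 was lowest in T98G at 5.68.

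The genes whose values over the 6 arrays were most like those of SCML1, by Pearson's r, were OGFOD1 (r = 0.996), DPY19L1 (0.992), BLZF1 (0.986), SYPL1 (0.981) and FAM168B (0.980). Their mean differences were -0.16, -0.86, -0.90, -1.30 and -0.64, so the likeness is one of pattern and not of size. For SCML2 they were NIBAN2 (r = 0.995), CABLES2 (0.994), KAT2B (0.994), TRIM46 (0.991) and SS18 (0.985). Their mean differences were -0.59, -0.27, -0.97, -0.14 and -0.26 in the same order. KAT2B is a histone acetyltransferase and SS18 is a subunit of BAF chromatin remodelling complexes. Neither SCML gene was among the 5 most like the other. All these values rest on 6 arrays that share lines and treatment, and they are descriptions picked as the highest among 13813 genes.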

How the data were processed

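The authors deposited log2 expression values for 33297 probe sets on 6 Affymetrix Human Gene ST 1.0 arrays. Per the submitters' processing notes they came from RMA with the package oligo in R 3.0.1. RMA quantile normalization removes shifts shared by most genes. Gene names came from the platform annotation (19460 probe sets with 1 symbol, 1754 with several, 12083 with none), and 19429 of the 1-symbol probe sets were matched by identifier to RefSeq genes of GRCh38.p14, used for names and neighbours. The brightest probe set stood for a gene, with the BMI1 and COMMD3-BMI1 probe set added, and the lowest 25% of genes by mean were left out.

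Mimic minus control was fitted over 13813 genes by limma 3.58.1 (lmFit, then eBayes; R 4.3.3) with cell line as a block. Tests were two-sided and genes were called at a Benjamini-Hochberg adjusted p under 0.05. Differences among lines were read from an F test in limma that kept the group as a term. The scripts were tested on simulated data. The filter, variance prior, array centring, choice of probe set, block and lines included were varied. The lines pair the arrays: deviations from the group means correlated within a line with r from 0.951 to 0.958. Residual degrees of freedom were 2, raised to 6.56 by the variance prior, and the number of arrays limits the precision. The labels name no batch, and one that followed the groups cannot be told apart from the mimic.

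Members and lists were chosen with earlier results of these data known. Named were all members, listed genes past the threshold, the 5 highest and 5 lowest listed genes, the 8 listed genes with the smallest F test p, and the 5 genes most like SCML1 and SCML2; other listed genes were named after their values were seen, as examples of their list. Of the listed genes 16 had no 1-symbol probe set in the annotation, and 8 were removed by the filter.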

Additional observations from a re-analysis of the deposited data

Results flagged for a closer look

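Some differences between mimic and control had opposite signs in different lines; with 1 array per line and group these differences between lines were not tested. Among the members this held for CBX2 alone, at -0.0042 in U87MG and 0.30 in T98G, and it held for the COMMD3 probe set beside BMI1, at -0.15 in T98G and 0.18 in A172. Among the HOX genes named, the lowest value lay in T98G for HOXB7 (-1.03, with 0.20 in A172), HOXC10 (-0.34, with 0.02 in A172), HOXB5 (-0.24, with 0.19 in A172), HOXD10 (-0.12, with 0.11 in A172), HOXB9 (-0.071, with 0.50 in U87MG) and HOXC11 (-0.052, with 0.72 in A172), and in U87MG for HOXB3 (-0.064, with 0.34 in A172). CDKN2A had -0.52 in A172 and 0.27 in T98G. Its values lay close to the filter level, so these signs say little about a difference between the lines.

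Among partners of variant complexes the signs were opposite for YAF2 (-0.37 in T98G, 0.10 in A172), RYBP (-0.36 in A172, 0.028 in U87MG), AUTS2 (-0.28 in A172, 0.32 in U87MG) and KDM2B (-0.056 in T98G, 0.17 in A172). The same held for SFMBT2 (-0.13 in U87MG, 0.52 in T98G), SFMBT1 (-0.014 in U87MG, 0.39 in A172) and PCGF6 (-0.012 in A172, 0.25 in U87MG). It also held for MTF2 (-0.13 in U87MG, 0.039 in A172), EED (-0.024 in T98G, 0.058 in U87MG), RBBP7 (-0.017 in T98G, 0.14 in U87MG), KDM6A (-0.055 in T98G, 0.058 in A172) and YY1 (-0.0050 in A172, 0.17 in U87MG).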

How the results depend on the processing

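The mean differences of the 8 measured members moved by less than their SD over lines when arrays were centred on their medians or quantile normalized again. The same held when 1 line was left out, where the arithmetic fixes it, and when probe sets were averaged, which can change RING1 alone, so these say nothing about stability. Over all genes 110 were called lower and 44 higher. The numbers were 46 and 15 with no filter, 240 and 125 with the lowest 50% left out, 302 and 170 with a variance prior that follows expression, 180 lower with centred arrays, and 0 and 0 without the cell line as a block (128 at an unadjusted p under 0.05). Leaving out 1 line gave 0 to 79 lower and 0 to 39 higher. Of the listed genes, 2 lower and 1 higher were called with the lowest 50% left out (PHC3 and JARID2 besides SKP1), 3 and 1 with the expression-dependent prior (LCOR too), 2 lower with all probe sets of a gene averaged (PHC3 and SKP1), 0 lower without the block, and 0 to 1 lower when 1 line was left out. Counts between lines stayed within 1.5 times. Without the block 0 members were called. The cause was not tested. Signal limits SCML2 in T98G, where the mimic value of 3.55 is under the filter level of 4.28, and CDKN2A.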
